A study of Mus musculus with 4 samples.

Results

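Secretory cells push most of what they export through the endoplasmic reticulum (ER). Nascent chains are targeted to a membrane channel, lose their signal peptide, gain sugars and disulfide bonds, and are folded by resident chaperones before they leave in coated vesicles. Chains that fail to fold are sent back to the cytosol for degradation, and a load of unfolded chains switches on the unfolded protein response through the sensors Ire1 (gene Ern1), Perk (Eif2ak3) and Atf6. B cells that become antibody-secreting plasma cells enlarge this machinery, with Xbp1 as a main transcription factor of the change.

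The genes described here are 59 members of this ER secretory pathway and of the unfolded protein response, out of 23699 entries of the deposited table. They were chosen by symbol from a list of known functions, and all 59 have an entry. Expression was compared between B10+ cells, sorted as high for Cd1d and positive for Cd5 and Il10, and B10− cells, which lacked Il10, Cd5 and Cd1d in the sort. Both subsets were sorted from splenic B cells of C57BL/6 mice, and the cultures had received anti-Cd40 for 48 h, with LPS, PMA and ionomycin present during the final 5 h. There are 4 libraries, a B10+ and a B10− one from each of 2 cultures, so every difference can be read within a culture. The comparison addresses how B cells sorted for Il10, Cd5 and Cd1d together differ from B cells of the same culture that lacked them. Differences that go with Il10 and those that go with Cd5 or Cd1d cannot be told apart.

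Values are the authors' FPKM, fragments scaled by transcript length and library size, so levels can be compared between genes. Between 9568 and 10132 entries reached 1 FPKM in a library. Low values clustered at steps, and taking the commonest step as 1 fragment gave a rough depth of 27200000 and 21800000 fragments for B10+ cells of cultures 1 and 2. For B10− cells it gave 24400000 and 32700000 fragments. B10+ cells of culture 1 stand apart in having 19.4% of entries listed at 0, against 34.5% to 37.3% in the other libraries. The B cell gene Ms4a1 had 195 and 66.7 FPKM in B10+ cells (cultures 1 and 2), and 253 and 65.5 FPKM in B10− cells. Pax5, a transcription factor of the B lineage, had 20.9 and 41.6 FPKM in B10+ cells, and 24.1 and 38.7 FPKM in B10− cells. The 8 T cell markers summed to 11.2 and 9.79 FPKM in B10+ cells, and to 10.5 and 3.72 FPKM in B10− cells, and 5 of them stayed below 1 FPKM in every library. Lck, the largest part of each sum, had 7.93 and 6.57 FPKM in B10+ cells, and 10.1 and 3.42 FPKM in B10− cells. Its sign thus differed between the cultures, as did that of Cd8a. Several of the low markers were nonetheless higher in B10+ cells of both cultures. Zap70 had 0.912 and 1.67 FPKM in B10+ cells, and 0 and 0.0140 FPKM in B10− cells. Cd3g had 1.14 and 0.245 FPKM in B10+ cells, and Cd28 had 0.690 and 0.651 FPKM there, against 0.265 and 0.0545 FPKM of Cd28 in B10− cells. Cd3e, Cd3g and Cd4 had values above 0 in each B10+ library, and were at 0 in each B10− library. Those values rest on few fragments, about 1.03 and 9.50 for Cd3e, 31.7 and 5.46 for Cd3g, and 14.2 and 6.83 for Cd4. The 8 macrophage markers summed to 9.05 and 7.77 FPKM in B10+ cells, and to 8.59 and 5.12 FPKM in B10− cells, with 6 below 1 FPKM in every library. Among them Emr1 had 2.58 and 2.55 FPKM in B10+ cells, and 0.836 and 0.220 FPKM in B10− cells. The list did not share that direction. Cd68, the largest part of these sums, had 5.72 and 4.38 FPKM in B10+ cells, and 7.55 and 3.46 FPKM in B10− cells. Its sign differed between the cultures, as did those of Csf1r, Cd14 and Itgam. The part of such other cells in the differences between the subsets was not tested. The erythroid markers summed to 37.0 and 48.2 FPKM in B10+ cells of cultures 1 and 2, and to 43.1 and 86.6 FPKM in B10− cells. The neutrophil markers S100a8, S100a9 and Elane were listed at 0 throughout. In bulk RNA, fewer cells of a type and less RNA per cell cannot be told apart.

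Of this machinery 1 member passed the test between the subsets in the fit with the culture as a term, and 0 passed in the planned fit without it. Sec11c, a catalytic subunit of the signal peptidase that cuts signal peptides from nascent chains, rose in B10+ cells. It was the only member called when the culture was a term of the model (limma-trend on log2(FPKM + 1), Benjamini-Hochberg adjusted p under 0.05 over 10367 tested entries). In that fit 0 members were called lower. Over all tested entries 0.781% were called higher and 0.0772% lower. Without the culture term, limma called 0 members and 0 of all tested entries (0%), with 0 members and 118 of all entries at an unadjusted p under 0.05.

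Of the 59 members 58 were tested, Sec24d being under 1 FPKM in 3 of the 4 libraries. The tested members higher in B10+ cells in both cultures numbered 30 (51.7%), against 33.4% of all tested entries. Those lower in both numbered 9 (15.5%), against 31.8% of all entries, and 19 went opposite ways. After quantile normalization the same counts were 24 of 58 higher and 10 of 58 lower, against 25.0% and 40.3% of all entries. The median log2 difference of the members was 0.12, with 0.18 in culture 1 and 0.07 in culture 2, and that of all tested entries was 0.00. Single differences lay within ±0.5 for 47 of the 58 members (81.0%) and for 84.5% of all entries. At an unadjusted p under 0.05 in limma with the culture term, 10 members (17.2%) were higher and 0 (0%) lower, against 10.5% and 4.66% of all entries.

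**Figure D1:**
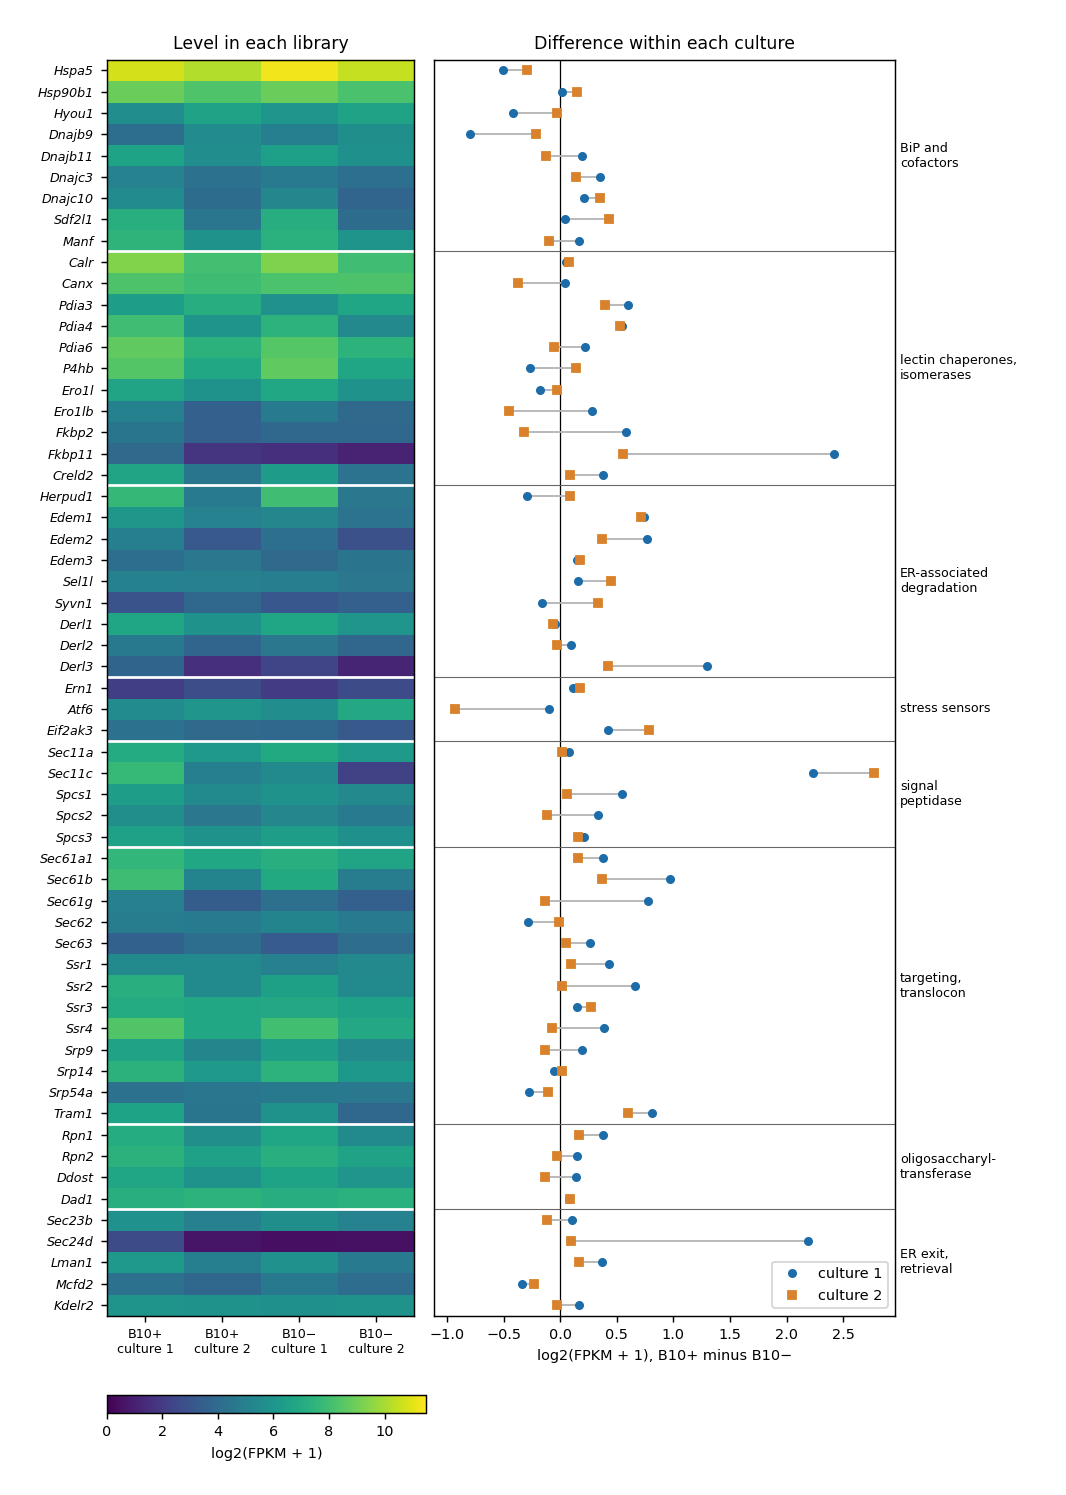
Left, log2(FPKM + 1) of the 59 members in each of the 4 libraries, as colour. Right, the difference between B10+ and B10− cells on that scale within culture 1 (circles) and culture 2 (squares), with members grouped by role. The mean of the points lies within 0.5 of zero for 47 of the 58 tested members, while both points of Sec11c lie beyond 2.

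Signal peptidase is the complex to which that member belongs. Sec11c had 205 and 30.6 FPKM in B10+ cells (cultures 1 and 2), and 42.9 and 3.61 FPKM in B10− cells. Within each culture the B10+ library was the higher one, but the B10+ library of culture 2 was below the B10− library of culture 1, so the subsets overlap when the cultures are pooled. On the log2 scale the gap was 2.23 in culture 1 and 2.78 in culture 2, with a mean of 2.50 ± 0.39 (SD over 2 cultures), a 5.67-fold difference on the FPKM + 1 scale. With the culture term its standard error was 0.19, its 95% interval ran from 1.998 to 3.01 and its limma adjusted p was 0.0287. Without the term the limma adjusted p was 0.999989. At the estimated depths its values correspond to about 4591 and 548 fragments in B10+ cells and 858 and 96.8 in B10− cells.

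Sec11a, the other catalytic subunit, had 134 and 72.6 FPKM in B10+ cells against 126 and 71.7 FPKM in B10− cells. Its log2 difference of 0.05 ± 0.04 (SD over 2 cultures) had a 95% interval of -0.29 to 0.39. The ratio of Sec11c to Sec11a was thus 1.54 and 0.421 in B10+ cells (cultures 1 and 2), and 0.340 and 0.0503 in B10− cells. Summed, the catalytic pair reached 339 and 103 FPKM in B10+ cells, against 169 and 75.3 FPKM in B10− cells.

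The accessory subunits of the complex had smaller differences than Sec11c, a contrast between genes that was not tested. Spcs1 had 83.3 and 43.3 FPKM in B10+ cells against 56.7 and 41.5 FPKM in B10− cells. Spcs2 had 50.3 and 22.8 FPKM in B10+ cells against 39.6 and 24.7 FPKM in B10− cells, with opposite signs in the cultures. Spcs3 stood at 96.1 and 59.9 FPKM in B10+ cells against 83.1 and 53.5 FPKM in B10− cells. Log2 differences of these 3 subunits were 0.30, 0.11 and 0.18, none past the threshold, and the locus of Spcs1 overlaps that of Glt8d1 at 1 end (limma adjusted p with the culture term between 0.466 and 0.783).

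**Figure D2:**
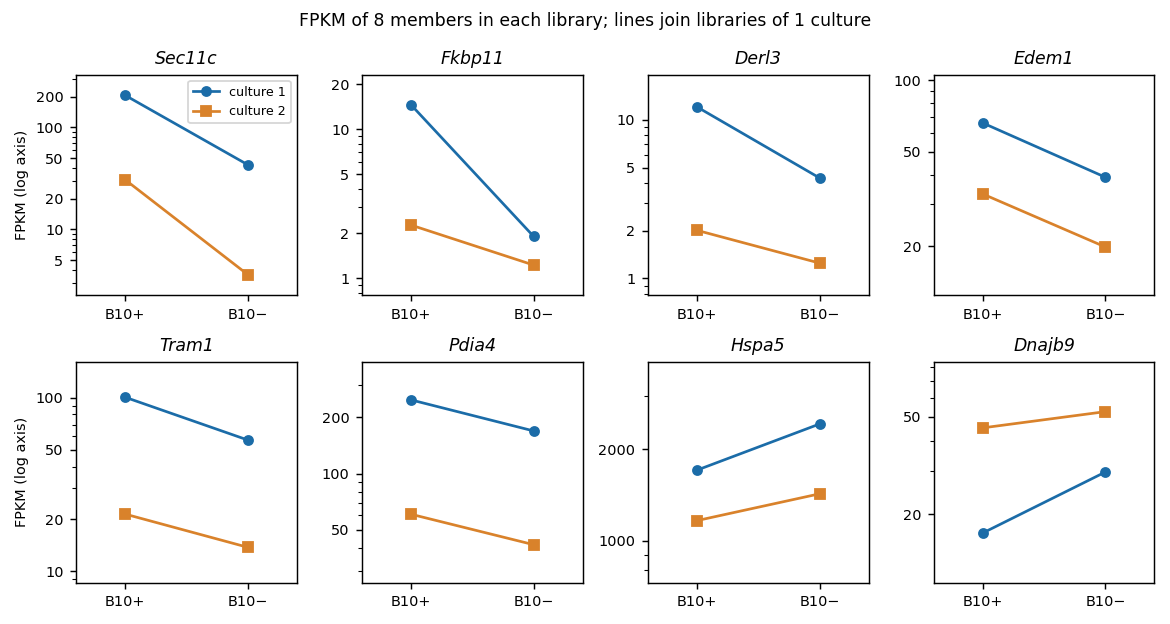
FPKM (log axis) of 8 members in each library, with B10+ at the left and B10− at the right of each panel, and lines that join the libraries of 1 culture. Both lines slope down to the right for Sec11c, Fkbp11, Derl3, Edem1, Tram1 and Pdia4, and slope up for Hspa5 and Dnajb9, while the cultures lie apart in every panel.

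Among BiP and its cofactors the largest differences pointed to lower values in B10+ cells. Hspa5 (chr2:34627610-34632049, mm9) encodes BiP, the main Hsp70 chaperone of the ER, and was the most abundant member, with 1707 and 1165 FPKM in B10+ cells (cultures 1 and 2), and 2419 and 1427 FPKM in B10− cells. The B10− library was higher in each culture. That gap, -0.40 ± 0.15 on the log2 scale (SD over 2 cultures), had a 95% interval of -0.88 to 0.09 and a limma adjusted p of 0.388 with the culture term. Dnajb9 (ERdj4), a J-domain partner of BiP, had 16.7 and 45.1 FPKM in B10+ cells against 29.7 and 52.6 FPKM in B10− cells. This log2 difference of -0.50 ± 0.41 (SD over 2 cultures) had a limma adjusted p of 0.340 with the culture term.

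Other J-domain cofactors leaned the other way without passing the test. Dnajc10 (ERdj5), a disulfide reductase, had 45.3 and 16.0 FPKM in B10+ cells against 39.0 and 12.3 FPKM in B10− cells. Dnajc3 (P58IPK) had 33.2 and 19.2 FPKM in B10+ cells against 25.8 and 17.3 FPKM in B10− cells. In each culture B10+ cells had more of both, by a mean of 0.28 and 0.25 on the log2 scale. Hsp90b1 (Grp94, the Hsp90 of the ER), Hyou1 (a nucleotide exchange factor of BiP), Dnajb11, Sdf2l1 and Manf had log2 differences between -0.22 and 0.23. Of the 9 genes of this group 4 were higher and 3 lower in both cultures, against 33.4% and 31.8% of all tested entries. The group had 0 calls, against 0.781% called higher and 0.0772% lower over all tested entries.

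Promoters of 12 members carry a well-known control sequence of the unfolded protein response, so some are shown. The ER stress response element (ERSE), CCAAT followed after 9 bases by CCACG, is bound by NF-Y at its first box and by Atf6 or Xbp1 at its last box. ERSE-II, ATTGG followed after 1 base by CCACG, is a compact form that shares the last box. RefSeq promoter windows (build GRCm38.p6, from 250 bases before to 50 after the start) were found for 48 of the 59 members, and both strands were searched. An ERSE stood in the windows of 10 members, against 39 of 32851 windows of all genes (0.119%), and an ERSE-II in those of 2 members, against 12 of all windows (0.0365%). The Xbp1-type element TGACGTGG was found in the window of 1 member, Sec24d, and in 0.676% of all windows. Members are counted as genes here, while the background is counted in windows, so the units differ.

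The sequences below are 8 of these sites with 12 bases on either side, 5′ to 3′ on the strand of the gene and with the fixed letters of the motif in capitals; they are those of 4 abundant chaperones, of Creld2 and of the degradation genes whose window held a site. An ERSE on the opposite strand reads CGTGG first and ATTGG last.
Hspa5 (chr2:34772013-34772055, plus strand): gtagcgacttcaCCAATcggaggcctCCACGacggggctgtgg
Hsp90b1 (chr10:86705521-86705563, minus strand): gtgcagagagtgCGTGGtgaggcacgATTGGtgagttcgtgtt
Calr (chr8:84847063-84847105, minus strand): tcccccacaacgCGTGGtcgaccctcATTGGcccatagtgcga
Canx (chr11:50325788-50325830, minus strand): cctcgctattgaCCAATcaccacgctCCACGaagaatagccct
Creld2 (chr15:88819508-88819550, plus strand): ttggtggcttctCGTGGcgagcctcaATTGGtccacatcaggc
Derl3 (chr10:75893230-75893272, plus strand): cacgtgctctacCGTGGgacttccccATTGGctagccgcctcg
Syvn1 (chr19:6046520-6046562, plus strand): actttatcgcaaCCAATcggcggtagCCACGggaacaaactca
Herpud1 (chr8:94386365-94386399, plus strand): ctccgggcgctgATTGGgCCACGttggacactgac

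In these windows the motif of Hspa5 begins 65 bases before the start, that of Calr 162, that of Derl3 156 and that of Herpud1 52. Dnajc3, Pdia6 and Ero1lb also hold an ERSE, and Dnajb11 an ERSE-II just past the start. The 12 members with either motif had a median log2 difference of 0.07, and their range, -0.40 for Hspa5 to 0.86 for Derl3, spans zero. The 35 tested members with a window and no match had a median of 0.16. No member of either set was called. Sec11c, the only called member, had no window and could not be searched. Of the 12, 5 were higher and 1 lower in both cultures, against 33.4% and 31.8% of all tested entries. A match is a run of letters and was not read as a working site.

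Lectin chaperones, disulfide isomerases and proline isomerases mostly had small differences, with 0 calls and a few members higher in B10+ cells in both cultures. Calr (calreticulin), the most abundant of them, had 644 and 268 FPKM in B10+ cells (cultures 1 and 2), and 624 and 254 FPKM in B10− cells. Its log2 difference of 0.06 ± 0.02 (SD over 2 cultures) had a 95% interval of -0.30 to 0.42. Its membrane-bound relative Canx (calnexin) differed by -0.16 ± 0.29.

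Pdia4 (Erp72; chr6:47746140-47763511, mm9), a disulfide isomerase, had 248 and 60.5 FPKM in B10+ cells against 169 and 41.6 FPKM in B10− cells. Pdia3 (Erp57), which works with Calr and Canx on glycoproteins, had 83.1 and 142 FPKM in B10+ cells against 54.5 and 108 FPKM in B10− cells. Each was higher in B10+ cells in both cultures, although Pdia4 was higher in culture 1 and Pdia3 in culture 2. On the log2 scale they differed by 0.54 ± 0.01 (Pdia4) and 0.50 ± 0.14 (Pdia3) (SD over 2 cultures), with limma adjusted p of 0.196 and 0.238 with the culture term. Fkbp11 (chr15:98554799-98558629, mm9), a proline isomerase of the secretory pathway, had 14.6 and 2.27 FPKM in B10+ cells against 1.91 and 1.22 FPKM in B10− cells. It differed by 2.42 on the log2 scale in culture 1 and by 0.56 in culture 2, and its limma adjusted p with the culture term was 0.287. That contrast rests mainly on B10+ cells of culture 1, at about 291 fragments, since the other libraries held about 29.4 to 36.4 fragments.

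Creld2, an ER protein induced by stress, had 105.0 and 21.3 FPKM in B10+ cells against 80.5 and 19.9 FPKM in B10− cells. Pdia6, P4hb (protein disulfide isomerase itself), the oxidases Ero1l and Ero1lb that supply disulfide bonds, and Fkbp2 had log2 differences between -0.10 and 0.13. Of the 11 genes of this group 5 were higher and 1 lower in both cultures, against 33.4% and 31.8% of all tested entries. The group had 0 calls, against 0.781% called higher and 0.0772% lower over all tested entries.

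Among degradation genes Edem1 differed by nearly the same amount in both cultures. Edem1 (chr6:108778635-108809350, mm9), which passes misfolded glycoproteins to degradation, had 66.1 and 33.2 FPKM in B10+ cells (cultures 1 and 2), and 39.1 and 19.9 FPKM in B10− cells. Its difference was 0.74 in culture 1 and 0.71 in culture 2, and after Sec11c it had the smallest p of all members (limma adjusted p with the culture term of 0.128, 95% interval 0.37 to 1.09). Edem2, its relative, had 30.4 and 8.33 FPKM in B10+ cells against 17.5 and 6.22 FPKM in B10− cells. Derl3 (chr10:75356143-75358686, mm9), a channel protein of the degradation route, had 12.1 and 2.01 FPKM in B10+ cells against 4.30 and 1.25 FPKM in B10− cells. In each culture B10+ cells had more of both, by 0.57 ± 0.28 and 0.86 ± 0.62 (SD over 2 cultures), with limma adjusted p of 0.287 and 0.282 with the culture term. The difference was larger in culture 1 for each, at 0.76 against 0.37 in culture 2 for Edem2, while Derl3 differed by 0.42 in culture 2. Derl3 stood at about 434 fragments in B10+ cells of culture 1, and at about 54.0 to 138 in the other libraries.

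The remaining genes of this route were closer to level. Sel1l, the scaffold of the Hrd1 ubiquitin ligase, had 32.4 and 31.4 FPKM in B10+ cells against 28.9 and 22.7 FPKM in B10− cells. Herpud1, an early responder to ER stress, had 203 and 24.7 FPKM in B10+ cells against 249 and 23.2 FPKM in B10− cells, with opposite signs in the cultures. Edem3, Syvn1 (the Hrd1 ligase), Derl1 and Derl2 had log2 differences between -0.06 and 0.16. The locus of Syvn1 overlaps that of Mrpl49 at 1 end. In all, 5 of the 9 degradation genes were higher and 1 lower in both cultures, against 33.4% and 31.8% of all tested entries. The group had 0 calls, against 0.781% called higher and 0.0772% lower over all tested entries.

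The sensors pointed in different directions. Eif2ak3 (Perk), the kinase that slows translation, had 18.5 and 14.9 FPKM in B10+ cells (cultures 1 and 2), and 13.6 and 8.25 FPKM in B10− cells. Atf6, a membrane-held transcription factor, had 45.4 and 63.3 FPKM in B10+ cells against 48.6 and 122 FPKM in B10− cells. Ern1 (Ire1), the nuclease that splices Xbp1 mRNA, had 3.32 and 5.89 FPKM in B10+ cells against 2.99 and 5.12 FPKM in B10− cells. Eif2ak3 and Ern1 were thus higher and Atf6 lower in B10+ cells in each culture, by a mean of 0.60, 0.14 and -0.51 on the log2 scale. Their limma adjusted p with the culture term was 0.266, 0.702 and 0.394. Atf6 differed by -0.10 in culture 1 and by -0.93 in culture 2, so its mean rests mainly on culture 2.

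Genes that target chains to the membrane and form the channel leaned to higher values in B10+ cells, a lean that was not tested. Of these 13 genes 7 were higher and 2 lower in both cultures, against 33.4% and 31.8% of all tested entries. The group had 0 calls, against 0.781% called higher and 0.0772% lower over all tested entries. Tram1 (chr1:13554783-13579945, mm9), which sits beside the channel, had 100.5 and 21.3 FPKM in B10+ cells (cultures 1 and 2), and 57.0 and 13.7 FPKM in B10− cells. Sec61b, the beta subunit of the channel, had 244 and 35.3 FPKM in B10+ cells against 124 and 27.1 FPKM in B10− cells. Log2 differences of Tram1 and Sec61b were 0.70 ± 0.15 and 0.67 ± 0.43 (SD over 2 cultures), with limma adjusted p of 0.155 and 0.257 with the culture term. Sec61a1, the pore itself, differed by 0.27 with a 95% interval of -0.10 to 0.63.

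Ssr2, a subunit of the translocon-associated protein complex, had 148 and 43.7 FPKM in B10+ cells against 93.1 and 43.3 FPKM in B10− cells, nearly level in culture 2. Sec61g, the gamma subunit of the channel, had 31.3 and 9.42 FPKM in B10+ cells against 17.9 and 10.4 FPKM in B10− cells, with opposite signs. Ssr4, the most abundant gene of this group, had 336 and 114 FPKM in B10+ cells against 256 and 120 FPKM in B10− cells. These 3 genes therefore owe their mean difference to culture 1. Sec62, Sec63, Ssr1, Ssr3 and the signal recognition particle genes Srp9, Srp14 and Srp54a had log2 differences between -0.19 and 0.27. Srp54a has 2 loci in the table and near-identical neighbours in Srp54b and Srp54c, so its own value is uncertain.

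Oligosaccharyltransferase, the complex that adds N-linked sugars, had small differences between the subsets. It had 0 calls, against 0.781% called higher and 0.0772% lower over all tested entries. Dad1, its most abundant gene here, had 153 and 170 FPKM in B10+ cells (cultures 1 and 2), and 144 and 160 FPKM in B10− cells. Rpn1 had 138 and 49.6 FPKM in B10+ cells against 106 and 44.2 FPKM in B10− cells, which did not pass the test. Rpn2 had 167 and 95.5 FPKM in B10+ cells against 151 and 97.7 FPKM in B10− cells. Ddost had 111 and 56.5 FPKM in B10+ cells against 100.2 and 62.3 FPKM in B10− cells. Differences of these 4 genes on the log2 scale lay between 0.00 for Ddost and 0.27 for Rpn1, and each 95% interval lay within -0.38 and 0.64.

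Genes of ER exit and retrieval also had small differences. The 4 tested had 0 calls, against 0.781% called higher and 0.0772% lower over all tested entries. Kdelr2, the receptor that returns escaped chaperones, had 61.2 and 58.6 FPKM in B10+ cells (cultures 1 and 2), and 54.4 and 59.9 FPKM in B10− cells. Lman1 (Ergic53), a cargo receptor, had 71.0 and 29.9 FPKM in B10+ cells against 54.6 and 26.6 FPKM in B10− cells. Its partner Mcfd2 had 19.1 and 13.7 FPKM in B10+ cells against 24.4 and 16.3 FPKM in B10− cells. The pair thus pointed in opposite directions in each culture, with limma adjusted p of 0.438 and 0.437 with the culture term. Sec23b, a COPII coat subunit, differed by -0.01. Sec24d, another coat subunit, had 5.36 and 0.549 FPKM in B10+ cells against 0.390 and 0.452 FPKM in B10− cells, so that its level stood out only in B10+ cells of culture 1, the library with the fewest entries at 0.

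For most members only the fit with the culture term bounds how large a difference could be. In that fit, the 95% interval lay within a 2-fold change in either direction for 47 of the 58 tested members. These intervals rest on 1 residual degree of freedom and on a spread shared over all genes, so they are a guide and not a proof of equal levels. The 95% intervals given above for single members are also from that fit. Without the term, intervals of the planned fit were wider, as for Calr (-1.94 to 2.06), Sec11a (-1.41 to 1.51) and Dad1 (-0.88 to 1.05). Each of these reached past a 2-fold change. The members were abundant, with a median of 67.9 FPKM against 14.7 FPKM for all tested entries. Across the 58 members, whose points share libraries, the differences in culture 1 and culture 2 correlated with a Pearson r of 0.64, and of 0.48 without Sec11c, against 0.51 over all entries.

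**Figure D3:**
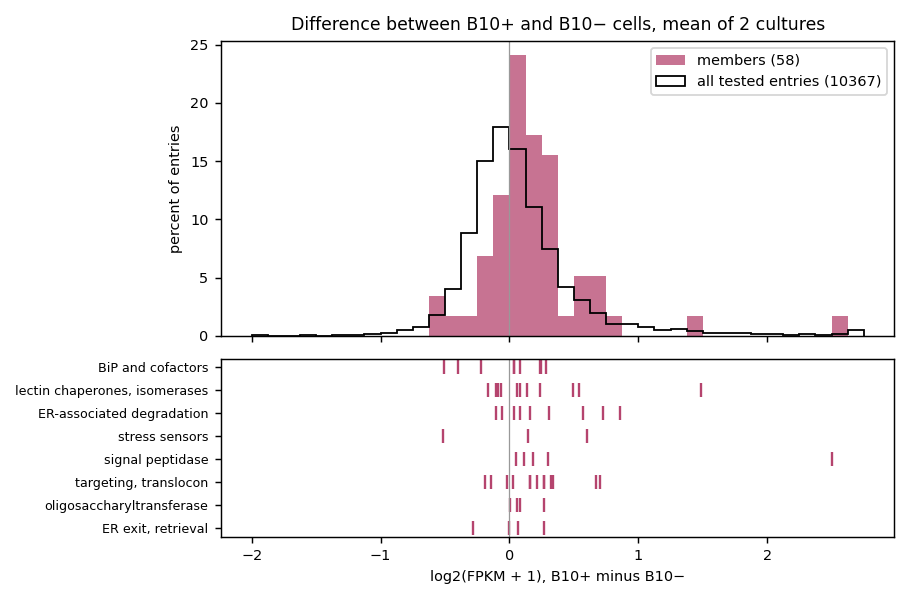
Top, percent of entries by log2 difference between B10+ and B10− cells (mean of 2 cultures), for the 58 tested members (filled) and all 10367 tested entries (line), with 53 entries beyond the ends of the axis counted in the end bins. Bottom, each member as a tick, by role. The members centre slightly above zero, at a median of 0.12, with Sec11c alone beyond 2.

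The other genes of the response did not share a direction. Of 12 tested transcription factors and outputs, 3 were higher and 5 lower in B10+ cells in both cultures. Over all tested entries those shares were 33.4% and 31.8%. The list had 0 calls, against 0.781% called higher and 0.0772% lower over all tested entries. Xbp1 had 99.0 and 63.8 FPKM in B10+ cells (cultures 1 and 2), and 75.1 and 46.6 FPKM in B10− cells. Ddit3 (Chop), a transcription factor downstream of Perk and Atf4, had 45.1 and 11.3 FPKM in B10+ cells against 119 and 18.3 FPKM in B10− cells. Trib3, a target of Atf4 and Ddit3, had 14.4 and 0.827 FPKM in B10+ cells against 24.2 and 1.796 FPKM in B10− cells. Xbp1 was higher, and Ddit3 and Trib3 lower, in B10+ cells of each culture, by 0.42, -1.01 and -0.66 on the log2 scale. Ppp1r15a (Gadd34), the phosphatase subunit that restores translation, had 26.5 and 141 FPKM in B10+ cells against 71.6 and 163 FPKM in B10− cells. The limma adjusted p with the culture term was 0.271 for Xbp1, 0.180 for Ddit3, 0.219 for Trib3 and 0.346 for Ppp1r15a.

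Further genes of the same machinery, from lists of known function, gave 0 calls as well. Of 16 tested genes of targeting, translocation and glycosylation 3 were higher and 3 lower in both cultures, and the smallest p belonged to Tusc3, Srpr, Stt3b and Srprb (log2 differences 0.38, -0.33, -0.23 and -0.18). Of 24 tested genes of folding and degradation 5 were higher and 3 lower, with Erp29, Ppib and Txndc5 at 0.42, 0.32 and 0.31 on the log2 scale. Of 32 tested vesicle coat and cargo receptor genes 8 were higher and 12 lower, led by Sec31a, Ergic1, Sec16a and Sar1a (-0.37, 0.35, -0.29 and -0.23). Over all tested entries 33.4% were higher and 31.8% lower in both cultures. None of the genes of these 3 lists was called, against 0.781% called higher and 0.0772% lower over all tested entries. The medians of the 3 lists were 0.03, 0.04 and 0.01 on the log2 scale, against 0.00 for all tested entries.

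Genes of antibody-secreting cells, the B lineage cells richest in this machinery, leaned to higher values in B10+ cells, a lean that was not tested. Of 10 tested genes 6 were higher and 1 lower in both cultures, against 33.4% and 31.8% of all tested entries. The list had 0 calls, against 0.781% called higher and 0.0772% lower over all tested entries. The median log2 difference of these genes was 0.23, against 0.00 for all tested entries. Prdm1 encodes Blimp-1, a repressor needed for plasma cells, and had 9.94 and 22.5 FPKM in B10+ cells (cultures 1 and 2), and 2.27 and 7.96 FPKM in B10− cells. Igj, the joining chain of secreted IgM and IgA, had 69.5 and 11.8 FPKM in B10+ cells against 22.4 and 0.219 FPKM in B10− cells. In each culture B10+ cells had more of both, with limma adjusted p of 0.0583 and 0.130 with the culture term, so neither was called. Ell2 and Fam46c differed by 0.76 and 0.34 on the log2 scale. Slamf7, a surface receptor of plasma cells, had 49.1 and 323 FPKM in B10+ cells, and 79.4 and 369 FPKM in B10− cells, and was the 1 gene lower in both cultures. Cd38 and Sdc1 differed by -0.67 and -0.08, with opposite signs in the cultures. Slamf7, Cd38 and Sdc1 were named after their values were seen. Over the 5 plasma cell markers found, the summed level was 132 and 359 FPKM in B10+ cells, against 109 and 378 FPKM in B10− cells. Slamf7 makes up most of that sum except in B10+ cells of culture 1, where Igj is the larger part, so the sum does not follow Prdm1 and Igj. Tnfrsf17 (Bcma) stayed at or under 0.116 FPKM in all libraries. The share of plasma cell RNA in the rise of Sec11c was not tested.

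The cultures themselves differed more than the subsets did. The difference between culture 1 and culture 2 was larger than that between B10+ and B10− cells for 51 of the 58 tested members (87.9%), and for 83.4% of all tested entries. Members were higher in culture 1 in both subsets in 45 of 58 cases (77.6%), against 56.3% of all entries. The median log2 difference, culture 1 minus culture 2, was 0.90 in B10+ cells and 0.69 in B10− cells for the members, and 0.28 and 0.32 for all entries. Herpud1, Sec11c, Sdf2l1 and Sec61b lay farthest toward culture 1, by 3.18, 2.98, 2.93 and 2.45 on the log2 scale (mean of both subsets). Sdf2l1, a BiP cofactor, had 149 and 21.5 FPKM in B10+ cells of cultures 1 and 2 and 144 and 15.7 FPKM in B10− cells. Dnajb9, Atf6, Pdia3 and Hyou1 lay toward culture 2, by -1.09, -0.89, -0.87 and -0.79.

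Transcript length moved with this culture difference. Across the 58 members the culture difference and the length of the transcript had a Spearman rho of -0.41, and across 9806 tested entries with a known length it was -0.36. The 19 members under 1500 nt had a median culture difference of 1.24, against 0.65 for the 39 longer members. For all entries those medians were 0.76 and 0.16. The part of length in the culture difference was not tested. The difference between the subsets followed length less, with a rho of -0.11 over the members and -0.13 over all entries.

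**Figure D4:**
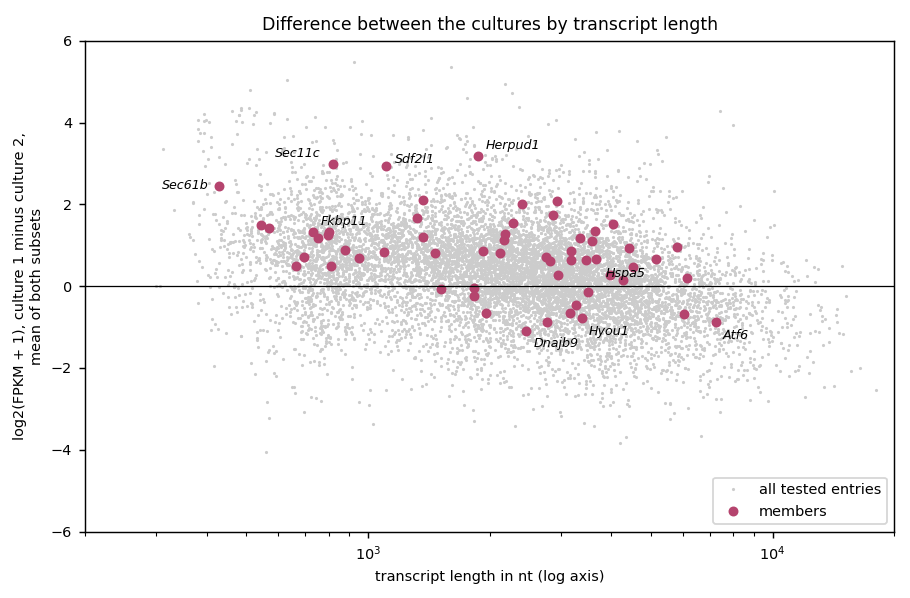
Difference between culture 1 and culture 2 on the log2(FPKM + 1) scale (mean of both subsets) against transcript length in nt (log axis), for the 58 tested members (large points) and tested entries with a known length (small points), with 4 entries outside the axes. Members shorter than 1500 nt lie higher, at a median of 1.24, than longer ones, at 0.65.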

How the data were processed

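Per the labels, the authors deposited 1 table of FPKM values with 1 column per library. Per the submitters' processing notes, the build was mm9 and the tools included bcl2fastq 1.8.4, DESeq, Cufflinks 2.1.1 and TopHat 1.3.2. For their roles, the annotation and the handling of strand, nothing is stated in the labels. Total RNA was depleted of ribosomal RNA before library preparation, per the labels. The members, lists and tests were chosen with earlier results of these data known. Values were tested as log2(FPKM + 1), which understates changes of low genes, over 10367 entries with at least 1 FPKM in at least 2 libraries. The test was limma-trend (R 4.3.3, limma 3.58.1), two-sided and checked on simulated data, and p-values were adjusted by Benjamini and Hochberg's method across every tested entry. The planned fit had no culture term, and the fit with the culture as replicate block is given beside it, because the labels pair the libraries by culture; deviations from group means correlated at 0.86 within a culture. The replicates are separate cultures, only 2 in number, and whether they came from different mice is not given in the labels. Where a symbol had several loci, that with the highest mean was used. Values in every library are given for called members, the 4 members of each role with the largest difference and the most abundant one; of the other lists, the 4 with the smallest p with the culture term are named, except 1 gene that is not reported here. From the list of further genes 1 symbol of another function was dropped. Depth was estimated by taking the commonest step of values below 0.3 FPKM in genes with 1 annotated transcript as 1 fragment, searched between 16000000 and 45300000 fragments. Only 15.8% to 19.2% of those values lay at that step, and GENCODE lengths are assumed, so depths and fragment numbers are rough. The file holds no counts, so no count model was used. Transcript length is that of the middle protein-coding transcript (GENCODE vM21), matched by symbol. Alternatives were another pseudocount (0.1), other filters, quantile or upper quartile scaling, and leaving out each library.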

Additional observations from a re-analysis of the deposited data

How the results depend on the processing

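Without the culture term and with all 4 libraries, 0 entries were called in either direction, except for 1 lower with a pseudocount of 0.1. With the replicate block 81 entries were higher and 8 lower. Together with the block the counts were 53 and 7 with a pseudocount of 0.1, 40 and 5 when low entries were kept, 62 and 9 with at least 5 FPKM in 2 libraries, 167 and 23 after quantile normalization, and 74 and 8 after upper quartile scaling. In each of these 6 blocked fits 1 member, Sec11c, was higher and 0 were lower, with a limma adjusted p between 0.0106 and 0.0484. Leaving out a library, without the block, gave 1 to 130 entries higher and 3 to 14 lower, 0 to 1 member higher (Sec11c without B10− replicate 1) and a member median of -0.34 (without B10+ replicate 1) to 0.59 (without B10+ replicate 2). Such fits set libraries of different cultures against each other by construction. The other settings kept the member median between 0.06 and 0.13. All calls rest on 2 cultures with 1 residual degree of freedom in the blocked fit.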
